A study of Mus musculus with 4 samples.

Results

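The regions described here are 5 windows of the mouse genome (build mm9) around homeobox genes of development: Irx1-Irx2-Irx4 (chr13:72000000-73400000), Irx3-Irx5-Irx6 (chr8:94300000-95000000), Dlx1-Dlx2 (chr2:71340000-71400000), Nkx2-1 to Pax9 (chr12:57600000-57850000) and Pax6 (chr2:105480000-105560000). The windows were chosen by position around these genes, and every CCGG position inside them was kept, which gave 2064 of the 1594137 sites in the deposited data. Of these, 209 were dense, with 10 or more CCGG at most 500 bp away, themselves counted, against 130174 dense sites in the genome. The other 1855 are described apart. The windows held 867, 682, 135, 258 and 122 sites in the order given. The Dlx1-Dlx2 window was the richest of the 5 in dense sites, which made up 24.4% of its sites, and the Pax6 window held 1.

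HELP tagging, which counts sequence tags next to CCGG cuts, was applied to MC1-ZE7 mouse embryonic stem cells (strain MC1, 129S6/SvEvTac, passage 31), grown without feeders and carrying an Emerald reporter named for the Zscan4c promoter (pZscan4c-Emerald). Cells sorted for high Emerald fluorescence were compared with Emerald-negative cells of the same line, to see whether methylation goes with the Zscan4 state. DNA of each fraction was cut either with HpaII, which is blocked when the inner cytosine of CCGG is methylated, or with MspI, which cuts both forms. There was 1 library for each of the 4 combinations, so no value below has a replicate check, and every test compares these libraries, not the conditions. Because the libraries hold DNA only, the labelled cell type could not be checked against expressed markers, and the line stands for 1 reporter line only.

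Irx genes encode TALE homeodomain factors that pattern the heart, limbs and nervous system and lie in compact gene clusters. Dlx1 and Dlx2 act in forebrain interneurons and the branchial arches, Nkx2-1 in thyroid, lung and ventral forebrain, Nkx2-9 in the ventral neural tube, Pax9 in teeth and pharyngeal pouches, and Pax6 in eye, brain and pancreas. In embryonic stem cells genes of this kind are mostly silent and lie in broad CpG-rich domains that carry Polycomb marks and little DNA methylation.

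Some promoters could be found in the data by their CCGG sites. RefSeq gives a promoter sequence (GRCm38.p6) for 9 of 12 genes looked up for the windows, and 5 of these 9 (Irx4, Dlx1, Dlx2, Pax6 and Nkx2-9) held at least 3 CCGG whose spacing occurred at exactly 1 place among the file positions of their chromosome. The long noncoding RNA gene Irx3os and the predicted gene Gm39222 were placed in the Irx3-Irx5-Irx6 window in the same way. Irx1, Irx5 and Irx6 had no entry in the promoter table, and Irx2, Irx3, Nkx2-1 and Pax9 were not placed. Whether these genes lie inside the windows was not checked. The 250 bases upstream of the start are shown for 5 promoters with tags in all 4 libraries: Irx4, Dlx1, Dlx2, Pax6 and the noncoding Irx3os. They run 5′ to 3′ in the direction of the gene, with each CCGG in capitals. Their GRCm38.p6 positions are chr13:73260247-73260496 on the plus strand (Irx4), chr8:91803086-91803335 on the plus strand (Irx3os), chr2:71529195-71529444 on the plus strand (Dlx1), chr2:71546755-71547004 on the minus strand (Dlx2) and chr2:105668646-105668895 on the plus strand (Pax6).
Irx4: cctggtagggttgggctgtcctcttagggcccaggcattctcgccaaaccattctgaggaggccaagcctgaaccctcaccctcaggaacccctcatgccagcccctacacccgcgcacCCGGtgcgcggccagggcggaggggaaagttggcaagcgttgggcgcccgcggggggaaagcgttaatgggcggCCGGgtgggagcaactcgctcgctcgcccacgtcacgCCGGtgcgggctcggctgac
Irx3os: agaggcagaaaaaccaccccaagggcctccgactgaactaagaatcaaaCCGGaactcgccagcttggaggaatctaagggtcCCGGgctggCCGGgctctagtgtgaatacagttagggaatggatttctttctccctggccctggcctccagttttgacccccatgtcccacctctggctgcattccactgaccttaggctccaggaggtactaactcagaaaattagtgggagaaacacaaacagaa
Dlx1: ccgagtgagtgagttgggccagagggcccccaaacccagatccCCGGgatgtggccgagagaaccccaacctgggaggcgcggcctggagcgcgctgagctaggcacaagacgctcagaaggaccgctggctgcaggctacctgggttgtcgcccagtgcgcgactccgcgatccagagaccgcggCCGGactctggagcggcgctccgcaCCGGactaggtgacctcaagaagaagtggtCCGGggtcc
Dlx2: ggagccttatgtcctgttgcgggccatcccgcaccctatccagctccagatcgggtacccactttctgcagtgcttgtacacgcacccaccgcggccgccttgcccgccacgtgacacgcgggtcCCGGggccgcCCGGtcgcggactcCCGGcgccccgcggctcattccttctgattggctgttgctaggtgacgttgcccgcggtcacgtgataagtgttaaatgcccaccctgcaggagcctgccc
Pax6: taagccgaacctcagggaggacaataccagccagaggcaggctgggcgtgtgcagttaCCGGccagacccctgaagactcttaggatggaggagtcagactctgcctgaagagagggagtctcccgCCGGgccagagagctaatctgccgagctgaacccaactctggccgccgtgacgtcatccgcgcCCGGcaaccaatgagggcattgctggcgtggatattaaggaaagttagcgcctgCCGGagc
CCGG reads the same on both strands, and it occurred in 52.8% of the 32851 promoters of 300 bases in the table, with 3 or more copies in 21.1%. Dlx1 and Dlx2 face each other on chromosome 2, so these sequences mark the outer edges of the gene pair. For Dlx2 and Irx4, 1 of the 4 CCGG counted below lies past the printed bases. These sites, 71384811 (Dlx2) and 73397966 (Irx4), had the most HpaII tags of their promoters in both fractions.

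All values below use tags scaled to the library totals, which were 5662614 tags for Emerald-high and 9535691 for Emerald-negative cells with HpaII, and 9372711 for Emerald-high and 9307616 for Emerald-negative cells with MspI. The windows took 0.172% and 0.138% of the HpaII and MspI tags in Emerald-high cells, against 0.191% and 0.134% in Emerald-negative cells. The cutting score is 100 × (2/π) × arctan(HpaII/MspI): 0 means no HpaII tag, 50 means equal scaled tags, and a high score is the signature of low methylation. The score is relative to each library's average. Differences are log2 HpaII/MspI in Emerald-high minus Emerald-negative cells, with 95% intervals that cover counting error only, since the tags carry no molecular identifiers. At dense sites outside the windows this difference was −0.72, and scaling to dense sites instead of library totals sets that value to 0 and moves every difference up by the same amount.

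At promoters HpaII tags outnumbered MspI tags in both fractions after scaling to library totals. The Pax6 promoter had 82 HpaII and 32 MspI tags in Emerald-high cells, against 198 HpaII and 19 MspI tags in Emerald-negative cells, over 4 CCGG at mm9 positions 105508862 to 105509047. Its scores were 85.3 for Emerald-high and 93.8 for Emerald-negative cells. The Pax6 promoter is not dense by the rule, with at most 8 CCGG within 500 bp, yet it carried more tags than any other promoter placed in the windows. The Dlx1 promoter (positions 71367296 to 71367494) had 44 HpaII and 23 MspI tags in Emerald-high cells, against 100 and 12 in Emerald-negative cells, and scores of 80.5 and 92.2. The Dlx2 promoter (71384811 to 71384934) had 29 HpaII and 19 MspI tags in Emerald-high cells, against 61 and 5 in Emerald-negative cells, and scores of 76.0 and 94.7. Nearly all Dlx2 tags came from 2 of its 4 sites: the site at 71384924 had none in any library.

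The Irx4 promoter (73397815 to 73397966) had 33 HpaII and 14 MspI tags in Emerald-high cells, against 85 and 17 in Emerald-negative cells, and scores of 84.0 and 87.1. At the Irx3os start (94327035 to 94327078) the tags were 42 and 28 in Emerald-high cells, against 100 and 19 in Emerald-negative cells, with scores of 75.6 and 87.8. The Gm39222 start (94321699 to 94321878) had 55 and 25 in Emerald-high cells, against 121 and 15 in Emerald-negative cells, with scores of 82.9 and 92.0. Each of these 6 promoters scored well above 50 in both fractions, and lower in Emerald-high than in Emerald-negative cells on library totals. Neither is unusual: of the 3996 placed promoters of the genome with at least 10 tags in each MspI library, 98.2% scored over 50 in both fractions and 86.6% had a difference below 0, with a median of −0.64. The log2 differences, with the standard error from counts, were −1.36 ± 0.58 (Dlx1), −1.26 ± 0.46 (Pax6), −1.11 ± 0.53 (Gm39222), −1.05 ± 0.50 (Irx3os) and −0.32 ± 0.60 (Irx4). Dlx2 gave −2.24 ± 0.79, but its 5 Emerald-negative MspI tags are under the minimum of 10 in each MspI library, so this value is uncertain. All but that of Irx4 lie below the −0.72 of dense sites elsewhere, so Irx4 alone turns positive when tags are scaled to dense sites. No test was made over promoters. The MspI libraries alone differed by 1.92 at Dlx2, 0.93 at Dlx1, 0.74 at Pax6, 0.73 at Gm39222, 0.55 at Irx3os and −0.29 at Irx4. This MspI value is subtracted in the HpaII/MspI difference, so a link between them is built in. The part of the MspI tags was not tested. Nkx2-9, placed at positions 57714284 to 57714347, had 2 HpaII and 2 MspI tags in Emerald-high cells, against 4 and 0 in Emerald-negative cells, too few for a value.

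Summed over all dense sites, the 5 windows had 1588 HpaII and 812 MspI tags in Emerald-high cells, against 3801 and 654 in Emerald-negative cells. HpaII thus outnumbered MspI in both fractions after scaling, with scores of 80.9 for Emerald-high and 88.9 for Emerald-negative cells. The difference was −0.81 [−0.98, −0.64], and the MspI libraries differed by 0.30 at the same sites. Dense sites in the rest of the genome scored 81.6 for Emerald-high and 88.6 for Emerald-negative cells, and the windows' difference minus theirs was −0.09 [−0.26, 0.08], which is within counting error.

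Dense sites of the Irx3-Irx5-Irx6 window had 697 HpaII and 336 MspI tags in Emerald-high cells, against 1744 and 277 in Emerald-negative cells (scores 82.0 and 89.7, difference −0.84 [−1.10, −0.58]). Those of the Dlx1-Dlx2 window had 393 and 204 in Emerald-high cells, against 890 and 144 in Emerald-negative cells (80.7 and 89.5, −0.92 [−1.27, −0.57]). The Irx1-Irx2-Irx4 window gave 277 and 146 in Emerald-high cells, against 681 and 125 in Emerald-negative cells (80.4 and 88.2, −0.76 [−1.16, −0.36]). The intervals of these 3 windows overlap. The Nkx2-1 to Pax9 window gave 208 and 121 in Emerald-high cells, against 457 and 100 in Emerald-negative cells (78.5 and 86.0, −0.65 [−1.10, −0.20]). The 1 dense site of the Pax6 window had 13 and 5 tags in Emerald-high cells, against 29 and 8 in Emerald-negative cells, and its interval of −1.59 to 2.15 gives no direction. Relative to dense sites elsewhere, the windows' differences were −0.04 (Irx1-Irx2-Irx4), −0.12 (Irx3-Irx5-Irx6), −0.20 (Dlx1-Dlx2), 0.07 (Nkx2-1 to Pax9) and 1.00 (Pax6), each with an interval that includes 0.

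**Figure D1:**
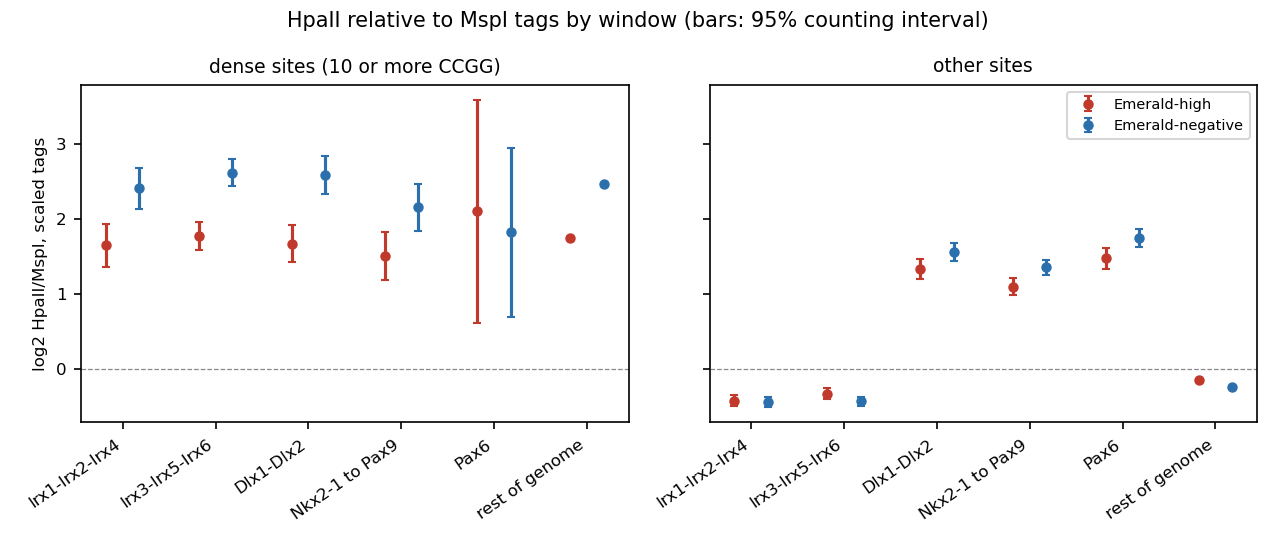
Log2 HpaII/MspI of summed, scaled tags (y axis) in each window and in the rest of the genome (x axis), for dense sites (left panel) and other sites (right panel); red points are Emerald-high, blue points Emerald-negative, and bars are 95% counting intervals. Dense sites lie above 0 in every window, while other sites lie above 0 in the Dlx1-Dlx2, Nkx2-1 to Pax9 and Pax6 windows and below 0 in both Irx windows.

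The dense sites formed 19 clusters, runs of dense sites at most 500 bp apart, of which 10 had at least 20 tags in each MspI library and were tested (5348 of 9856 in the genome). Fisher's exact test called 3 of the 10 lower in Emerald-high cells (Benjamini-Hochberg adjusted p under 0.05 and at least 2-fold), where 20.5% of tested clusters in the genome were called lower. None was called higher, against 0.206% in the genome, and at an unadjusted p under 0.05 the test gave 5 lower and 0 higher, against 2832 lower and 19 higher among all 5348. All 10 differences lay below 0 on library totals, as did 95.4% of those elsewhere, and 6 of the 10 lay above 0 after scaling to dense sites, where none was called. Their median was −0.70, against −0.71 in the rest of the genome.

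In the Irx3-Irx5-Irx6 window the cluster at 94329238 to 94329617 (9 sites) had 132 HpaII and 75 MspI tags in Emerald-high cells, against 378 and 62 in Emerald-negative cells. It was called lower, with a difference of −1.03 [−1.59, −0.47] and an adjusted p of 0.00313 by Fisher's exact test. The cluster at 94881476 to 94882405 (16 sites) had 113 and 53 in Emerald-high cells, against 290 and 36 in Emerald-negative cells. It had the highest Emerald-negative score of the tested clusters, 91.9, against 82.4 in Emerald-high cells, and was called lower (−1.16 [−1.84, −0.47], adjusted p = 0.00683, Fisher's exact test). The HpaII libraries alone differed by −0.77 and −0.61 at these clusters, and the MspI libraries by 0.26 and 0.55. Both fell just short of 2-fold, and so were not called, when the deeper Emerald-negative HpaII library was thinned to the depth of the Emerald-high one.

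The third called cluster lay in the Nkx2-1 to Pax9 window at 57634307 to 57634803 (7 sites), with 57 and 39 tags in Emerald-high cells, against 138 and 22 in Emerald-negative cells. Its difference was the lowest of the tested clusters, −1.34 [−2.22, −0.46], with an adjusted p of 0.0124 by Fisher's exact test. Here the MspI libraries differed by 0.82 and the HpaII libraries by −0.52, and the part of the MspI tags in the call was not tested. Less than 3 kb away, the cluster at 57637194 to 57637660 (also 7 sites) had 106 and 54 in Emerald-high cells, against 255 and 61 in Emerald-negative cells. Its difference was the nearest to 0 of the tested clusters, −0.33 [−0.95, 0.29], and its Emerald-negative score the lowest, 84.7, against 81.0 in Emerald-high cells. The intervals of these neighbours overlap.

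The cluster that ends at the Dlx2 promoter (71383568 to 71384934, 19 sites) had 255 HpaII and 130 MspI tags in Emerald-high cells, against 594 and 93 in Emerald-negative cells. With −0.94 [−1.38, −0.50] it had the smallest adjusted p of the windows, 0.000596 by Fisher's exact test, but fell short of 2-fold and was not called. The cluster between the Dlx promoters at 71379263 to 71379732 (10 sites) gave −0.69 [−1.38, 0.01]. The cluster with most sites, 27 over 2011 bp in the Irx3-Irx5-Irx6 window (94323473 to 94325483), lies between the Gm39222 and Irx3os starts. It had 307 and 154 tags in Emerald-high cells, against 735 and 133 in Emerald-negative cells, and also passed the adjusted p (0.00341, Fisher's exact test) without reaching 2-fold (−0.71 [−1.10, −0.32]). With these the adjusted p alone passed 5 of 10 clusters as lower, against 42.4% in the genome, and 0 as higher, against 0.243%.

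None of the 3 tested clusters of the Irx1-Irx2-Irx4 window passed the test. The cluster that begins at the Irx4 promoter (73397815 to 73398470, 14 sites) had 106 and 49 tags in Emerald-high cells, against 250 and 46 in Emerald-negative cells, and a difference of −0.57 [−1.23, 0.10]. The clusters at 72100807 (14 sites) and 72766012 (12 sites) gave −0.54 and −0.53. The largest cluster of this window, 25 sites at 72529209 to 72530153, had no tag in any of the 4 libraries, MspI included, so nothing can be said of its methylation. Such silence is not particular to it: 207 of the 813 clusters with at least 25 sites in the genome (25.5%) had no tag.

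The 9 untested clusters had few MspI tags. Among them, 72768784 in the Irx1-Irx2-Irx4 window (6 sites) gave −1.74 [−2.72, −0.75] and 94883940 in the Irx3-Irx5-Irx6 window (11 sites) gave −1.37 [−2.27, −0.48], with MspI differences of 0.90 and 0.91. Clusters at 94984354 (6 sites) and 57712891 (4 sites) lay above 0, at 0.09 [−0.86, 1.04] and 0.59 [−1.19, 2.36]. Scores under 70 in Emerald-high cells occurred at 72173240 (11 sites, 61.5 for Emerald-high and 64.9 for Emerald-negative cells) and at 57685278 (6 sites, 51.7 and 76.4). The values at 57685278 rest on a single site, 57685432, which had 14 HpaII and 22 MspI tags in Emerald-high cells, against 29 and 11 in Emerald-negative cells.

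**Figure D2:**
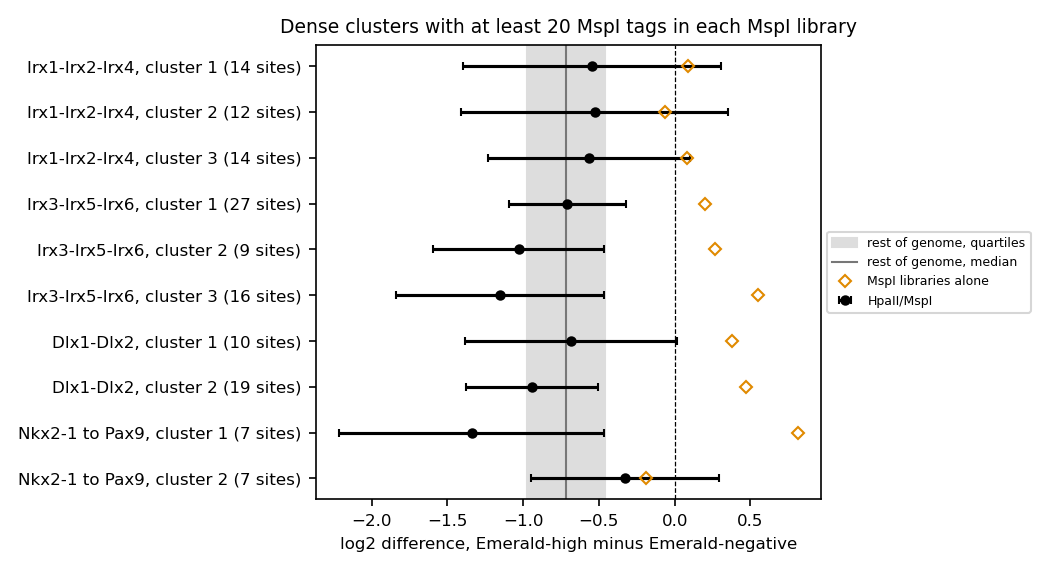
Log2 difference, Emerald-high minus Emerald-negative (x axis), of the 10 tested dense clusters (y axis, by window and number of CCGG sites): black points are HpaII/MspI with 95% counting intervals, open orange diamonds the MspI libraries alone, and the grey line and band the median and quartiles of the other tested clusters of the genome. All 10 black points lie below 0 on library totals (6 lie above it when scaled to dense sites), between −1.34 and −0.33, and the 2 clusters with the lowest values also have the 2 highest MspI differences. The MspI difference is a term of the HpaII/MspI difference, so this is a description only.

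At sites that are not dense, which include sites close to dense clusters, the windows separated. The Dlx1-Dlx2, Pax6 and Nkx2-1 to Pax9 windows span 60, 80 and 250 kb. The Irx1-Irx2-Irx4 and Irx3-Irx5-Irx6 windows span 1400 and 700 kb, and the part of window length in the separation was not tested. The other sites of the Pax6 window had 1151 HpaII and 686 MspI tags in Emerald-high cells, against 2325 and 676 in Emerald-negative cells, and scores of 78.0 and 81.6. The Dlx1-Dlx2 window had 1126 and 742 in Emerald-high cells, against 2247 and 745 in Emerald-negative cells (75.9 and 79.2). Its 17 other sites from 71340001 to 71360000 scored only 34.2 and 23.3. The Nkx2-1 to Pax9 window had 1455 and 1126 in Emerald-high cells, against 2836 and 1080 in Emerald-negative cells (72.2 and 76.3). In these 3 windows HpaII thus outnumbered MspI after scaling at sites that are not dense too, though in Emerald-negative cells by less than at the dense sites of the Dlx1-Dlx2 and Nkx2-1 to Pax9 windows. Other sites in the rest of the genome scored 46.8 for Emerald-high and 44.7 for Emerald-negative cells.

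Relative to that rest, log2 HpaII/MspI in Emerald-high and Emerald-negative cells was higher by 1.62 and 1.99 in the Pax6 window, by 1.48 and 1.80 in the Dlx1-Dlx2 window and by 1.24 and 1.60 in the Nkx2-1 to Pax9 window, all well outside counting error. Both Irx windows lay slightly below the rest: the Irx1-Irx2-Irx4 window had 2157.87 HpaII and 4796.7 MspI tags in Emerald-high cells, against 3450.97 and 4592.5 in Emerald-negative cells, and scores of 40.7 and 40.3. The Irx3-Irx5-Irx6 window had 2279.83 and 4763.0 in Emerald-high cells, against 3564.83 and 4711.0 in Emerald-negative cells (42.7 and 40.5). Fractions of a tag come from 8 sites of the Irx1-Irx2-Irx4 window and 3 of the Irx3-Irx5-Irx6 window, and the other windows had whole tags only.

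The windows differ in CCGG spacing, so sites were also compared within a spacing class. Within the class of 2 to 4 CCGG, scores were 76.8 for Emerald-high and 77.6 for Emerald-negative cells for Pax6, 70.3 and 72.5 for Dlx1-Dlx2, and 64.8 and 67.7 for Nkx2-1 to Pax9, against 42.8 and 40.9 in the rest of the genome. The separation from the rest therefore remained in this spacing class. Levels of these windows in the other spacing classes are not given here. The same class scored 38.6 and 38.8 in the Irx1-Irx2-Irx4 window and 32.8 and 28.8 in the Irx3-Irx5-Irx6 window. Isolated sites scored 33.6 for Emerald-high and 23.9 for Emerald-negative cells over the 5 windows, against 39.6 and 30.2 elsewhere.

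Level and difference are built from the same ratios, so their relation is a description only. The difference between the fractions was lower in the 3 windows with the higher levels than in both Irx windows. On library totals it was −0.27 [−0.46, −0.09] at the other sites of the Pax6 window, −0.26 [−0.41, −0.11] in the Nkx2-1 to Pax9 window and −0.23 [−0.41, −0.05] in the Dlx1-Dlx2 window, and all 3 turn positive when tags are scaled to dense sites. It was 0.02 [−0.08, 0.12] in the Irx1-Irx2-Irx4 window and 0.10 [0.01, 0.20] in the Irx3-Irx5-Irx6 window. The MspI libraries differed by at most 0.05 at these sites. Summed over the 5 windows it was −0.10 [−0.15, −0.04] on library totals and 0.62 when scaled to dense sites, and lay below that of the rest by −0.19 [−0.24, −0.14] under either scaling. At equal spacing the gap was smaller: −0.03 [−0.13, 0.08] for 5 to 9 CCGG, −0.11 [−0.20, −0.03] for 2 to 4 and 0.08 [−0.03, 0.20] for isolated sites. The pooled value for 5 to 9 CCGG joins opposite ones, −0.30 [−0.54, −0.06] in the Irx1-Irx2-Irx4 window and 0.20 [0.01, 0.40] in the Irx3-Irx5-Irx6 window. Isolated sites of the windows were higher in Emerald-high cells, by 0.57 [0.45, 0.69], against 0.48 elsewhere.

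Other sites were also grouped by distance to the nearest dense site. Distant sites can still lie close to other CCGG. The Pax6 promoter, with up to 8 CCGG within 500 bp, counts as 2 to 10 kb from the window's 1 dense site at 105516238. In the Nkx2-1 to Pax9 window the 44 sites from 57790001 to 57805000, none of them dense, count as beyond 10 kb. Other sites within 500 bp of a dense site scored 79.9 for Emerald-high and 85.6 for Emerald-negative cells over the windows, against 81.6 and 86.9 in the rest of the genome, which is within counting error. From 500 bp to 2 kb the scores were 80.8 and 84.9 in the windows, against 74.1 and 77.2 elsewhere. From 2 to 10 kb they were 74.7 and 78.0 in the windows, against 55.7 and 55.3 elsewhere, so log2 HpaII/MspI was higher than elsewhere by 0.99 [0.90, 1.08] in Emerald-high and by 1.23 [1.15, 1.31] in Emerald-negative cells. The same held at equal spacing: sites with 2 to 4 CCGG in that class scored 70.2 and 72.9 in the windows, against 53.1 and 52.9 elsewhere, although in the Irx3-Irx5-Irx6 window alone they scored 34.1 and 32.1.

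Beyond 10 kb the windows parted, though values at equal spacing are not given here for that class. The Nkx2-1 to Pax9 window still scored 69.6 for Emerald-high and 72.9 for Emerald-negative cells, and the Pax6 window 65.6 and 67.5, against 42.8 and 39.0 elsewhere. The Irx1-Irx2-Irx4 window lay below the genome with 28.1 and 21.3, and the Irx3-Irx5-Irx6 window with 27.8 and 19.98. The Dlx1-Dlx2 window lay below it too. In the Irx windows these distant sites were higher in Emerald-high cells by 0.44 [0.31, 0.57] and 0.52 [0.39, 0.66], which exceeds the 0.17 elsewhere by 0.26 [0.13, 0.39] and 0.35 [0.22, 0.48]. This excess was not taken at equal spacing, and isolated sites of the rest of the genome were higher in Emerald-high cells too. The Irx3-Irx5-Irx6 window already stood apart at 2 to 10 kb, with 63.2 and 61.8, the lowest of the 5 windows in that class.

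**Figure D3:**
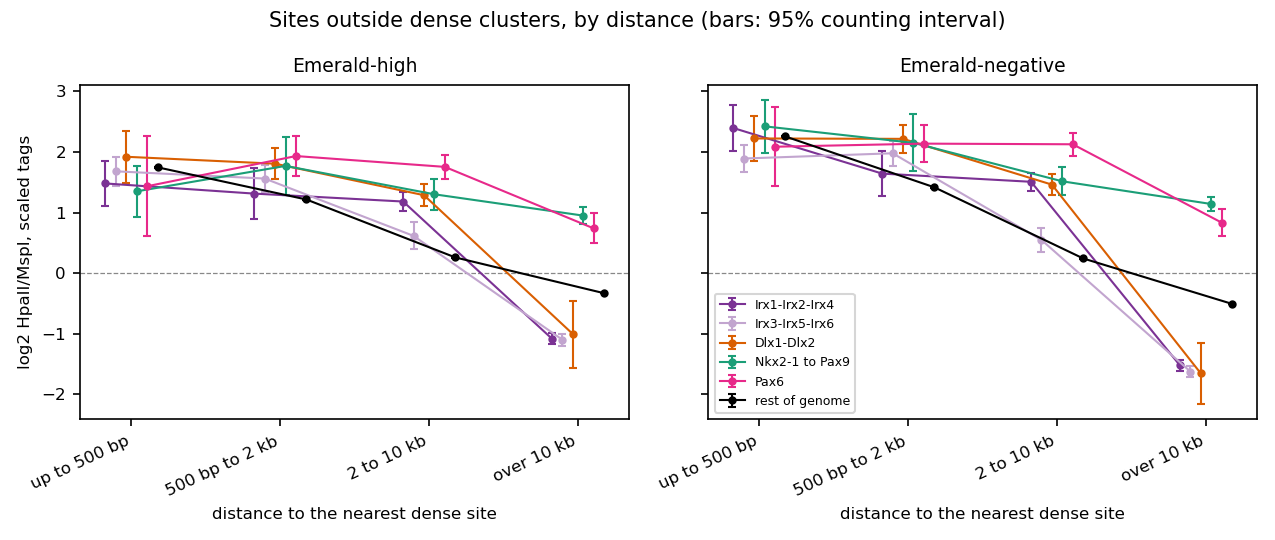
Log2 HpaII/MspI of summed, scaled tags (y axis) at sites outside dense clusters, by distance to the nearest dense site (x axis), in Emerald-high (left panel) and Emerald-negative cells (right panel); lines are the 5 windows (colours) and the rest of the genome (black), bars 95% counting intervals. The Nkx2-1 to Pax9 and Pax6 windows stay above 0 beyond 10 kb, where both Irx windows and the Dlx1-Dlx2 window lie below the rest of the genome.

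Along the windows, 5 kb bins with at least 10 tags in each MspI library were scored with dense and other sites together. In the Pax6 window 8 of 12 bins scored over 50 in both fractions, in the Dlx1-Dlx2 window 6 of 11 and in the Nkx2-1 to Pax9 window 14 of 27, against 18 of 147 and 13 of 105 in the Irx1-Irx2-Irx4 and Irx3-Irx5-Irx6 windows and 20.5% in the rest of the genome. These shares depend on where the edges of each window were set. The Pax6 bins formed a single run of 40 kb (105495001 to 105535000) with 103 CCGG sites, of which 1 was dense. It had 1143 HpaII and 567 MspI tags in Emerald-high cells, against 2333 and 587 in Emerald-negative cells, and scores of 81.5 and 83.9. Of the 33917 runs in the genome, whose median was 5 kb, 102 were at least that long.

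The Dlx1-Dlx2 run spanned 30 kb (71365001 to 71395000), covering both promoters, with 117 sites and scores of 80.2 for Emerald-high and 85.4 for Emerald-negative cells. In the Nkx2-1 to Pax9 window the longest run was 25 kb (57620001 to 57645000, 65 sites, 79.1 and 85.8). A further run of 15 kb in that window (57790001 to 57805000) held 44 sites and none that was dense, and scored 80.7 and 85.9. The Irx windows had shorter stretches set in long tracts of low scores. Those of 20 kb lay at 72090001 to 72110000 (77.3 and 84.6), 72760001 to 72780000 (80.2 and 86.6) and 94875001 to 94895000 (79.2 and 84.3). A stretch of 15 kb at 94320001 to 94335000 (78.5 and 84.1) held the Irx3os start, and one from 73395001, with the Irx4 promoter, ran past the edge of its window.

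**Figure D4:**
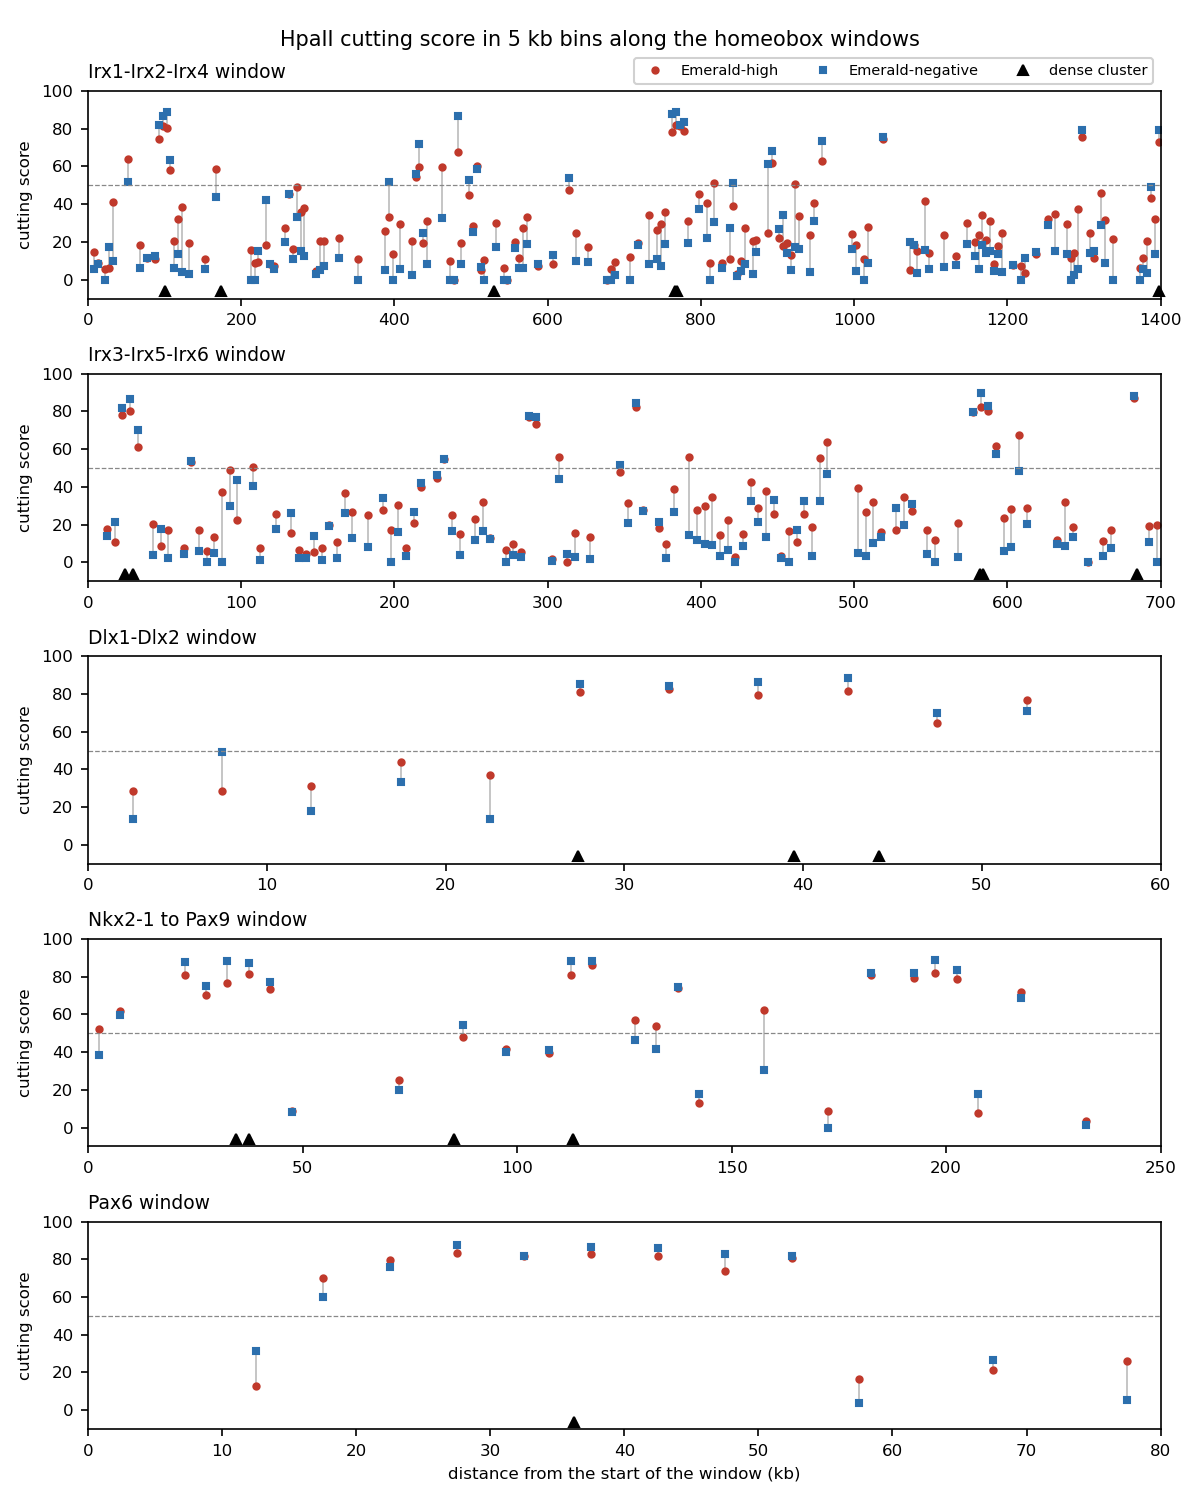
Cutting score (y axis, 0 to 100, dashed line at 50) in 5 kb bins against distance from the start of each window (x axis, kb), 1 panel per window; red circles are Emerald-high, blue squares Emerald-negative, grey lines join the same bin, and black triangles under the points mark dense clusters. Bins over 50 form 1 block in the Pax6 window (8 of 12 bins) and in the Dlx1-Dlx2 window (6 of 11), several blocks in the Nkx2-1 to Pax9 window and narrow peaks in the Irx windows.

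To ask where between the clusters the fractions differed, sites that are not dense were summed in 20 kb bins, of which 120 in the windows had at least 20 tags in each MspI library. Fisher's exact test called 6 of them higher in Emerald-high cells, against 4.74% of tested bins in the genome. None was called lower (0.108% in the genome). The difference was above 0 in 75.8% of the bins, against 72.9% elsewhere, with a median of 0.54 against 0.42. The 6 called bins all lay in the Irx windows and outside the runs described above, and all scored under 20 in Emerald-negative cells. Most tested bins were of this kind. The Irx1-Irx2-Irx4 and Irx3-Irx5-Irx6 windows held 66 and 35 of the 120, and the median Emerald-negative score of the 120 was 16.7.

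The bin with the smallest adjusted p, 94700001 to 94720000 in the Irx3-Irx5-Irx6 window, had 49 HpaII and 194 MspI tags in Emerald-high cells, against 25 and 243 in Emerald-negative cells. Its scores were 25.2 and 6.37, and the difference was 2.06 [1.31, 2.80] (adjusted p = 5.32e-05, Fisher's exact test). The bin before it, from 94680001, had 64 and 133 in Emerald-high cells, against 44 and 168 in Emerald-negative cells, with scores of 42.8 and 15.9 and a difference of 1.64 [1.00, 2.28]. These 2 neighbours were the only called bins of the windows that touch. The MspI libraries differed by −0.33 and −0.35 in them.

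The other called bins of this window began at 94800001, with 22 and 89 tags in Emerald-high cells, against 12 and 92 in Emerald-negative cells (1.68), and at 94960001, with 30 and 212 in Emerald-high cells, against 16 and 180 in Emerald-negative cells (1.43). In the Irx1-Irx2-Irx4 window the bin from 73320001 had 30 and 92 in Emerald-high cells, against 15 and 79 in Emerald-negative cells (1.54). The bin from 72200001 had 10 and 80 in Emerald-high cells and no HpaII tag against 84 MspI tags in Emerald-negative cells, where a count of 0 allows up to 3 tags. With 3 tags in place of the 0, HpaII/MspI was 5.94-fold higher there in Emerald-high cells. That value leaves out the counting error of the other counts and is not a lower limit. The adjusted p of the bins at 73320001, 94800001 and 94960001 was 0.0442, 0.0447 and 0.0465 by Fisher's exact test, just under the limit. After the same thinning of the Emerald-negative HpaII library, only the neighbours from 94680001 and 94700001 of the 6 were still called.

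Among bins that were not called, the lowest difference of the 120 was in the Pax6 window, −0.76 [−1.78, 0.27] in the bin from 105480001, with 17 and 50 tags in Emerald-high cells, against 38 and 39 in Emerald-negative cells. The highest of that window was 0.99 [−0.48, 2.46] from 105540001, and the Dlx1-Dlx2 bins gave −0.32, −0.23 and 0.64. In the Irx3-Irx5-Irx6 window the bin from 94840001 had 7 and 54 tags in Emerald-high cells, against 1 and 46 in Emerald-negative cells (3.34 [0.26, 6.41], adjusted p = 0.138, Fisher's exact test), and the bin from 94880001 gave −0.22. In the Irx1-Irx2-Irx4 window the lowest value was −0.71 [−1.54, 0.12] from 72880001. The Nkx2-1 to Pax9 window ran from −0.58 [−0.90, −0.27] in the bin from 57620001, inside its longest run (434 and 240 tags in Emerald-high cells, against 959 and 209 in Emerald-negative cells), to 1.01 [−0.15, 2.17] in the bin from 57760001. The bin from 57620001 passed the adjusted p (0.0161, Fisher's exact test) and fell short of 2-fold. All the values below 0 named here, except that of the Pax6 bin, lie above 0 when scaled to dense sites.

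**Figure D5:**
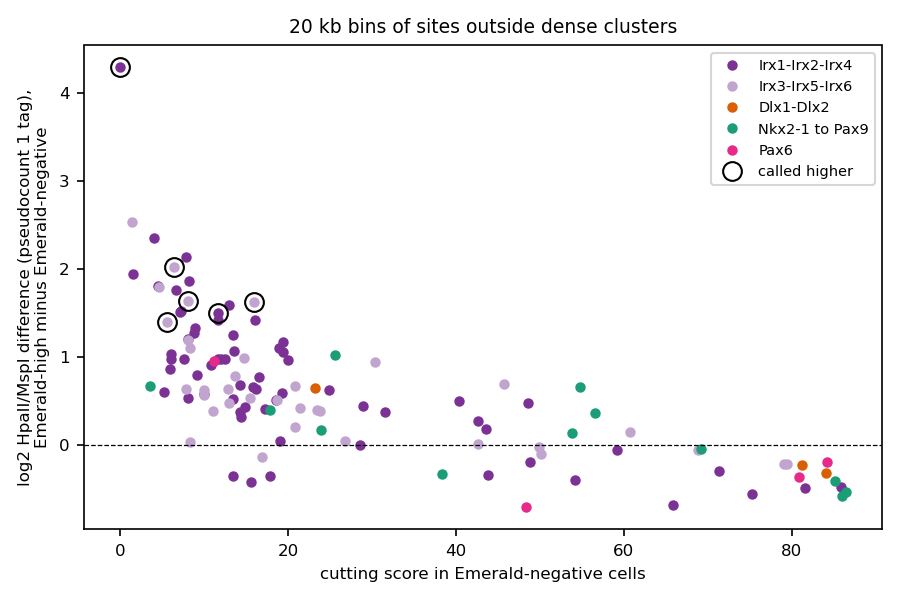
Log2 HpaII/MspI difference with a pseudocount of 1 tag, Emerald-high minus Emerald-negative (y axis), against the Emerald-negative cutting score (x axis) of the 120 tested 20 kb bins of sites outside dense clusters, coloured by window, with called bins ringed. The 6 ringed bins lie in the Irx windows, which hold most of the tested bins, at Emerald-negative scores under 20. Bins scoring over 80 in Emerald-negative cells lie below 0 on library totals. Both axes contain the Emerald-negative ratio, so the slope is a description only.

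Single sites with at least 10 tags in each MspI library numbered 12 dense and 334 other in the windows. The dense ones had median scores of 78.7 for Emerald-high and 83.7 for Emerald-negative cells, and the others 20.4 and 9.80, against 26.5 and 14.1 in the rest of the genome. None of the 12 dense sites scored under 20 in either fraction, whereas 163 of the 334 others did for Emerald-high and 213 for Emerald-negative cells. The covered others had high scores on library totals in the Pax6 window (medians 73.9 and 80.2, 12 sites) and low scores in the Irx3-Irx5-Irx6 window (17.1 and 6.19, 165 sites).

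Fisher's exact test called 1 single site of the windows, higher in Emerald-high cells (0.102% of covered sites in the genome were called higher) and 0 lower (0.0297% in the genome). It is the isolated site at chr8 position 94690351, in a called bin and 191125 bp from the nearest dense site, with 24 HpaII and 43 MspI tags in Emerald-high cells, against 8 and 50 in Emerald-negative cells. Its scores were 47.5 and 9.86 and its adjusted p was 0.0404. Other isolated sites had large but uncalled gaps: 72442249 in the Irx1-Irx2-Irx4 window had 6 and 10 tags in Emerald-high cells, against 4 and 24 in Emerald-negative cells (scores 49.8 and 10.3), and 105538651 in the Pax6 window, beyond the end of its run, had 5 and 15 in Emerald-high cells, against 0 and 19 in Emerald-negative cells. The largest gap the other way was at 71383345, 223 bp outside the Dlx2 cluster, with 8 and 12 tags in Emerald-high cells, against 49 and 12 in Emerald-negative cells (53.1 and 84.4). At 73253754 in the Irx1-Irx2-Irx4 window it was 0 and 13 in Emerald-high cells, against 5 and 11 in Emerald-negative cells. The adjusted p of these 4 sites lay between 0.323 and 0.754, by Fisher's exact test. The widest gaps of the Irx3-Irx5-Irx6 window apart from the called site were at 94961007, scoring 38.4 for Emerald-high and 0 for Emerald-negative cells, and at 94310375, scoring 12.2 and 39.3. The Nkx2-1 to Pax9 window had its widest rise in score at 57600050 (51.4 for Emerald-high and 39.8 for Emerald-negative cells), and the Dlx1-Dlx2 window at 71340700 (30.4 and 4.59). In the Pax6 window the widest fall was at 105522139 (71.0 and 86.6). None of these passed the test.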

How the data were processed

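DNA methylation was measured in 4 HELP tag libraries, 1 per combination of cell fraction and enzyme, over CCGG positions of build mm9, per the submitters' processing notes. The authors' deposited files give, at each position, 2 estimated counts and their total. These counts are not scaled to depth, and between 1.67% and 1.94% of sites per library hold fractions of a tag. The sources used here give no aligner, no rule for tags that match several places and no account of what sets the 2 counts apart. The total was used, scaled to library totals (5662614 to 9535691 tags). The windows, members, clusters, gene lists and tests were chosen with earlier results of these data known.

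Dense sites at most 500 bp apart were joined into clusters, and other sites were summed in 20 kb bins. Units covered by 20 or more tags of both MspI libraries (10 for single sites) were compared over the whole genome by a two-sided Fisher's exact test on rounded counts, with the null odds ratio set by library totals. Calls rest on an adjusted p (Benjamini-Hochberg) under 0.05 and a 2-fold change with a pseudocount of 1 tag. Intervals are 95% Poisson intervals of log2 ratios and cover counting error only. The sources do not say whether the fractions come from separate cultures, and with 1 library per group the spread between sorts is unmeasured. The text names every called unit, the cluster with most sites, and the tested clusters and covered sites with the highest and lowest values per window, and such bins in windows of 5 or more. The bins of the Pax6 and Dlx1-Dlx2 windows were named after their values were seen. RefSeq promoters (GRCm38.p6, 300 bases, of which 250 upstream) were placed by the spacing of at least 3 CCGG at exactly 1 place on the chromosome, without converting coordinates, and 6383 of the 6935 promoters with 3 or more CCGG were placed. No mm9 annotation was used. Whether a site is exonic or intronic is therefore not given.

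Alternatives were other minima, scaling to dense sites, HpaII alone, each tag part alone, whole-tag sites, another density limit, other joining distances, bins and pseudocounts, removal of the most tagged sites, thinning of the deeper HpaII library and division by an overdispersion factor. The tools were matplotlib 3.10.9, numba 0.67.0, scipy 1.17.1, pandas 2.3.3 and numpy 2.4.6 under Python 3.11.15. The p-values of the exact test were checked against those from R 4.3.3. The scripts were also tested on simulated data with known rises in Emerald-high HpaII tags. An adjusted p under 0.05 (Fisher's exact test) recovered 42.7% of 2-fold rises among tested dense clusters and 14.9% among 20 kb bins. At 4-fold it recovered 99.0% and 79.6%.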

Additional observations from a re-analysis of the deposited data

How the results depend on the processing

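Scaling to the dense sites of the genome moved the most. The dense difference of the 5 windows became −0.089 and that of other sites 0.62. No cluster was then called lower (0, against 3; 0.0374% in the genome), and 62 of 120 bins were called higher instead of 6 (45.4% in the genome). Clusters then above 0 were 57637194 (0.40), 72766012 (0.21), 72100807 (0.19), 73397815 (0.16), 71379263 (0.052) and 94323473 (0.016), and so were the bins from 94880001 (0.51), 57620001 (0.14) and 72880001 (0.039). Median site scores became 45.2 (dense) and 6.25 (other) in Emerald-high and 38.6 and 1.78 in Emerald-negative cells. These shifts follow from the scaling itself. HpaII alone gave −0.51 at dense sites. With dense set at 15 or more CCGG the differences were −1.17 (dense, 37 sites) and −0.18 (other). Clusters called lower were 5 of 15 with at least 10 MspI tags (20.4% in the genome), 1 of 4 with at least 50 (11.9%) and 1 of 10 after thinning (21.1%). Bins called higher were 3 of 120 after dividing counts by the overdispersion factor (1.03% in the genome), 2 of 120 after thinning (2.09%) and 3 of 49 in bins of 50 kb (8.47%). With at least 5 MspI tags the Emerald-negative medians were 86.0 (dense) and 13.1 (other), and no dense site had 20. The causes of these other changes were not tested. At least 1 alternative removed the call of each called bin except those from 94680001 and 94700001. The called site lost its call with at least 5 MspI tags (adjusted p = 0.083) and with whole-tag sites only (adjusted p = 0.0585), both by Fisher's exact test. Each tag part alone gave −0.81 at dense sites. No paired analysis was possible because each group has 1 library. Depth limits the clusters, of which 9 of 19 had too few MspI tags to test.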

Other observations

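Other homeobox genes were looked up in the same way from a list of 40 (Dlx, Nkx, Pax, Lhx and other families), of which 26 had a promoter in the table and 13 were placed, with 15 promoters. Nkx2-9, which is on this list, lies in the windows. Of the 15, 13 promoters had at least 10 tags in each MspI library, and all 13 scored over 50 in both fractions, as did 98.2% of the 3996 covered promoters in the genome. Their median scores were 78.4 for Emerald-high and 88.2 for Emerald-negative cells, against 82.4 and 88.5 over all covered promoters. The median difference was −0.99 on library totals, with 12 of 13 below 0, against −0.64 and 86.6% over all covered promoters. The MspI libraries differed by a median of 0.38 at the listed promoters and by 0.20 over all. The lowest value was that of Isl1, a LIM homeodomain factor of motor neurons and heart, with 18 HpaII and 22 MspI tags in Emerald-high cells, against 51 and 10 in Emerald-negative cells (scores 59.5 and 87.4). Msx1, a factor of tooth and limb mesenchyme, was the one above 0, with 57 and 18 in Emerald-high cells, against 102 and 23 in Emerald-negative cells (88.0 and 85.5). Both genes were named after their values were seen, and no test was made over this list.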
